A study of Mus musculus with 6 samples.

Results

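The miR-34 family was followed in exosomes of RAW 264.7 cells, a mouse macrophage line, through its 5 arms mmu-miR-34a-5p, mmu-miR-34b-5p, mmu-miR-34c-5p, mmu-miR-34b-3p and mmu-miR-34c-3p, written without the species prefix from here on. The arms were taken by name and not by their values, and they are 5 of the 1881 miRNAs on the array, each with 2 probes. Exosomes are miRNA-carrying vesicles shed into the medium. In the LPS group, 3 samples came from cells given 2 µg/mL lipopolysaccharide (LPS), which is part of the outer membrane of bacteria and activates macrophages, with the supernatant taken after 72 h. The control group held 3 samples from untreated cells of the same line, and the labels repeat the LPS text for them without a culture time of their own. Each sample was run on a one-colour Agilent miRNA array after size-exclusion chromatography of the supernatant. The labels do not say whether the 3 samples of a group are separate cultures, and the p-values reflect only how far these samples differ among themselves, which could be technical.

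The miR-34 miRNAs are direct transcriptional targets of p53, the transcription factor that answers DNA damage and other stress. Their 5p arms pair through the seed, the bases at the 5′ end that select target mRNAs, with transcripts of cell-cycle and survival genes. miR-34a is made in many tissues from a gene of its own, whereas miR-34b and miR-34c are cut from a shared primary transcript that is known for its level in testis and in ciliated epithelium of the lung.

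The mature sequences show how the family divides into 2 seed groups. In RefSeq (GRCm38.p6) 4 of the 5 arms were matched, all but miR-34c-5p. The first group holds the 5p arms and has miR-449a-5p and miR-449c-5p as seed relatives, with the seed (bases 2 to 8 from the 5′ end) in capitals:
miR-34a-5p: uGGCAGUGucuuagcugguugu
miR-34b-5p: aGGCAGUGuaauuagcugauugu
miR-449a-5p: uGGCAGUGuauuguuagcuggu
miR-449c-5p: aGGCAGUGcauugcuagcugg

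The 3p arms of miR-34b and miR-34c share another seed, again in capitals:
miR-34b-3p: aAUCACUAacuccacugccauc
miR-34c-3p: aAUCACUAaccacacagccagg

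What an array reads is the hybridisation to a probe, so the probes of miR-34b-5p and miR-34c-5p are shown as the deposited files give them, 5′ to 3′, with the bases at which they differ in capitals:
miR-34b-5p probe: AcaatcagctaaTtacactgcc
miR-34c-5p probe: GcaatcagctaaCtacactg

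Over the 20 bases that both probes hold they differ at 2 positions, A1G and T13C (the miR-34b-5p base first, counted from 1 at the 5′ end of the probe). The miR-34c-5p probe had 2 mismatches to mature miR-34b-5p, so the signals of these arms may not be fully separate, which was not tested. The miR-34a-5p probe stood further away, with 9 differences from the miR-34b-5p probe over 20 bases. No probe of the 5 members matched another of the 1679 mature sequences searched over its whole length. Those sequences hold 1608 of the 1881 miRNAs on the array and lack miR-34c-5p, so the miR-34b-5p probes were not compared with that mature arm. In the files' mm9 positions the miR-34a-5p probe of 20 bases lies at chr4:149442585-149442603, the miR-34c-5p probe of 20 bases at chr9:50911155-50911173 and the miR-34c-3p probe of 14 bases at chr9:50911193-50911205, and no position is given there for the miR-34b probes. Counted with both ends, each of these ranges is shorter than its probe, and they are printed as the files give them. In the RefSeq gene table (GRCm38.p6) Mir34a lies between the protein-coding genes H6pd and Gpr157, while Mir34b and Mir34c lie next to each other and overlap Hoatz and Btg4.

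The arrays of the groups differed in brightness as a whole. Over the 198 miRNAs that every array detected, the unscaled 75th percentile was 2229 ± 180 in LPS exosomes and 477 ± 41.0 in control exosomes (linear intensity, SD, n = 3 each), a 4.67-fold gap, while 4 spiked-in RNAs had an LPS to control ratio of 0.878. An array detected 428 ± 17.1 miRNAs in LPS exosomes and 219 ± 8.14 in control exosomes by the detection flag of the files. Each array was therefore divided by its own 75th percentile, and the part of the brightness gap in any difference on another scale was not tested. Less RNA per vesicle, fewer vesicles in a sample and a technical difference between the arrays of the groups cannot be told apart here. Of the 412 miRNAs tested, 65.5% were higher and 26.7% lower in LPS exosomes, and the median log2 difference was 0.85 over all of them. Of the 198, 58.1% were higher and 38.4% lower, with a median of 0.77.

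The 3 members detected on all 6 arrays, miR-34a-5p, miR-34b-5p and miR-34c-5p, were called higher in LPS exosomes, where 58.1% of the 198 such miRNAs and 65.5% of all tested ones were, so the share by itself does not set the family apart. Their median log2 difference was 0.87, beside 0.77 over the 198. miR-34c-3p was tested only because the LPS arrays detected it, and no direction is read for it on the scaled signal, for the reason given with its values. The fifth member, miR-34b-3p, was detected on no array and was not tested. In these 3 members the 3 LPS arrays lay above the 3 control arrays on the scaled signal, as 66.3% of the tested miRNAs did, while 27.2% had the LPS arrays below. With 3 arrays against 3, an exact permutation test of a single value cannot go below 0.1, and the adjusted p-values here come from limma over all 412 miRNAs.

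**Figure D1:**
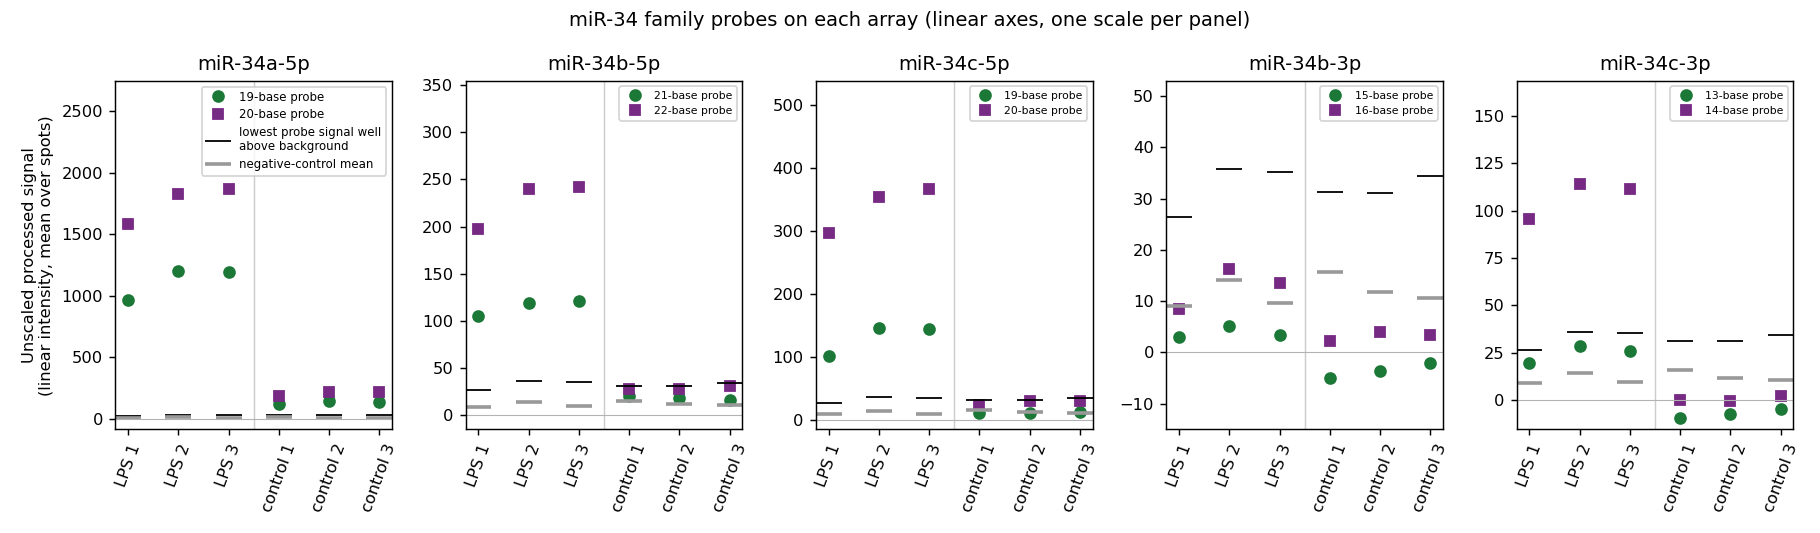
Unscaled processed signal (linear intensity, mean over spots) of both probes of each member on the 3 LPS and the 3 control arrays, with the lowest probe signal well above background (black dash) and the mean of the negative controls (grey dash) of each array. Both miR-34a-5p probes stand above both dashes on all 6 arrays, whereas the longer probes of miR-34b-5p, miR-34c-5p and miR-34c-3p stand above the black dash on the LPS arrays only and those of miR-34b-3p on none.

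miR-34a-5p, the arm most studied as a mediator of p53, was the only member well above background on all 6 arrays. Its unscaled signal was 1584, 1825 and 1867 on the LPS arrays, against 183, 220 and 216 on the control arrays. These values lay between 220 and 282 SDs of the negative controls above their mean in LPS exosomes and between 19.5 and 30.4 SDs above it in control exosomes. The weakest LPS array was thus several times brighter than any control array, on a scale that also holds the brightness gap of the arrays.

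After scaling, miR-34a-5p had 806, 801 and 827 in LPS exosomes, against 437, 443 and 453 in control exosomes. The groups were far apart relative to the spread within them. The log2 difference was 0.87 (SE 0.037), 1.83-fold, with a limma adjusted p of 8.92e-07. Its shorter probe of 19 bases gave a scaled ratio of 1.76, close to the 1.83 of the longer one. Among the 198 miRNAs detected on all 6 arrays, 89 had a larger difference, which places miR-34a-5p near the middle of them, 0.10 above their median on the log2 scale. Of the alternatives, 8 left this offset as it was by construction, and over the 15 that could move it the offset was 0.0063 to 0.82.

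miR-34b-5p was flagged as detected on every array but was well above background in LPS exosomes only. Its unscaled signal was 197, 240 and 241 on the LPS arrays, against 27.8, 27.9 and 30.5 on the control arrays. The control values lay 1.41 to 2.95 SDs above the mean of the negative controls, and the LPS values 27.3 to 35.2 SDs above it. On the scaled signal it had 100.4, 105.3 and 107 in LPS exosomes, against 66.2, 56.2 and 64.0 in control exosomes.

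The scaled groups of miR-34b-5p did not overlap, and the measured log2 difference was 0.75 (SE 0.071, limma adjusted p = 6.48e-05). Because the control side was near the background, this difference is read as a bound: the LPS mean over, for each control array, the higher of the probe's own signal and the lowest probe signal well above background. By this bound miR-34b-5p was at least 1.496-fold higher in LPS exosomes, for its 22-base probe and in this scaling only. Its 21-base probe gave a measured scaled ratio of 1.34, which is below that bound. With quantile normalization the measured log2 difference of miR-34b-5p was 0.24. Of the 196 tested miRNAs that no control array showed well above background, 30.6% had a bound above 1, and 30 of the 196 had a larger bound than miR-34b-5p.

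miR-34c-5p, the partner of miR-34b-5p in the shared transcript, had the largest bound in the family. Its unscaled signal was 297, 353 and 366 on the LPS arrays, against 24.4, 30.0 and 30.7 on the control arrays. The control values lay 1.02 to 2.99 SDs above the mean of the negative controls, and the LPS values 41.2 to 54.1 SDs above it. On the control arrays it was therefore as close to the background as miR-34b-5p was.

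On the scaled signal miR-34c-5p had 151, 155 and 162 in LPS exosomes, against 58.2, 60.6 and 64.5 in control exosomes. The groups did not overlap. The measured log2 difference was 1.35 (SE 0.054, limma adjusted p = 6.59e-07), and 0.88 with quantile normalization. By the bound of its 20-base probe miR-34c-5p was at least 2.24-fold higher in this scaling only, with 16 of the 196 miRNAs having a larger bound. The 19-base probe of miR-34c-5p gave a measured scaled ratio of 2.35 and the 20-base probe 2.56.

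The calls of miR-34b-5p and miR-34c-5p depended on how the background was treated. With the normexp background correction the log2 difference was -0.44 for miR-34b-5p and 0.029 for miR-34c-5p (limma adjusted p = 0.625), beside 0.66 for miR-34a-5p. With the gene total signal in place of the probes it was -2.03 for miR-34b-5p and -1.68 for miR-34c-5p, beside 1.17 for miR-34a-5p. With the mean of each array's negative controls taken off before scaling, an alternative chosen after seeing the data, the differences were 1.51, 2.21 and 0.92 in the same order of arms.

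The gene total signal, which the files list for each miRNA beside its probes, behaved differently on the arrays of the groups. For miR-34b-5p it was 86.8, 104.96 and 104.5 on the LPS arrays, equal to the sum of its probe totals there, and 70.3, 83.7 and 82.3 on the control arrays, where the probe totals summed to 10.2, 9.88 and 9.91. For miR-34c-5p it was 114, 146 and 147 on the LPS arrays, again equal to the probe sum, and 75.4, 90.1 and 88.9 on the control arrays, where the probe totals summed to 7.66, 8.77 and 9.07. For miR-34a-5p the gene total matched the probe sum on all 6 arrays.

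Such a gap was not particular to the family. The gene total was over 1.5 times the probe sum, or the probe sum was not positive, for part of the detected miRNAs. This part was 24.8 to 25.3% on an LPS array and 27.0 to 28.1% on a control array. The fraction of a feature counted as its effective size, which the files give per array, was 0.812 to 0.829 on the LPS arrays and 0.6 on every control array. Whether that fraction has a part in the reversal was not tested.

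**Figure D2:**
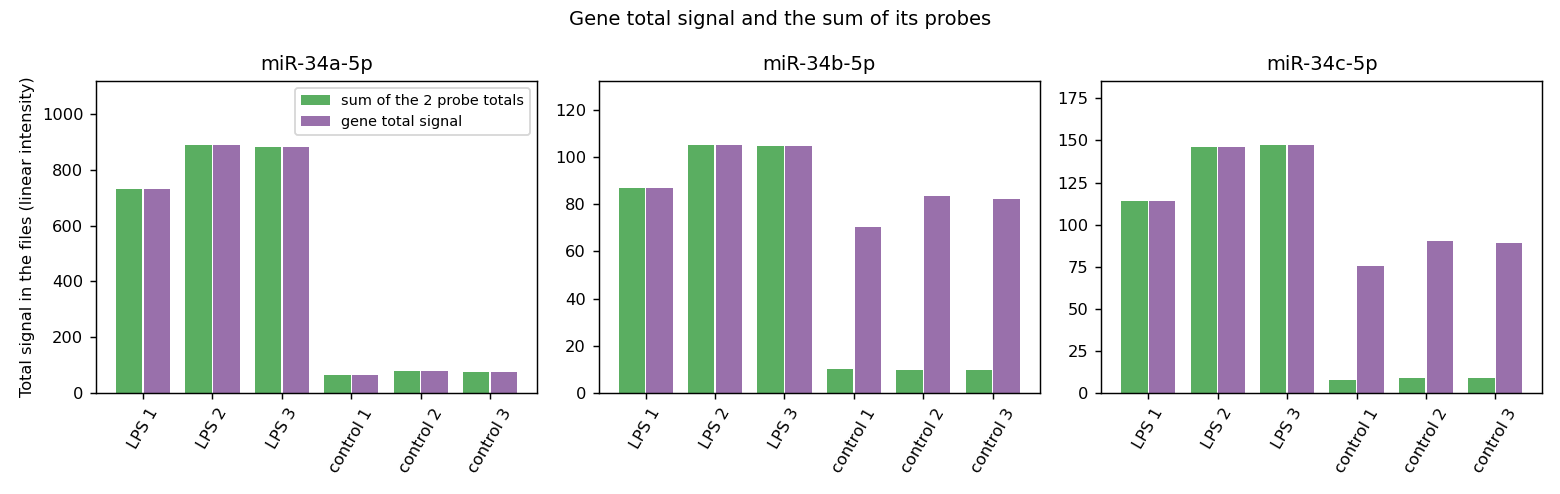
Gene total signal and the sum of the 2 probe totals (linear intensity, bars from 0) for the 5p arms on each LPS and control array. The bars are equal for miR-34a-5p on all 6 arrays, while for miR-34b-5p and miR-34c-5p the gene total on the control arrays is between 6.91 and 10.3 times the probe sum.

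Of the 3p arms, miR-34c-3p was detected on the 3 LPS arrays and on no control array. Its unscaled signal was 95.6, 114 and 111 on the LPS arrays, against -0.031, -0.29 and 2.30 on the control arrays. The LPS values lay 12.2 to 15.4 SDs above the mean of the negative controls, and the control values were below that mean. The control arrays thus carried no signal of this arm that could be told from background. These values are of the 14-base probe. The 13-base probe had 19.3, 28.3 and 26.0 on the LPS arrays and was well above background on no array.

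On the scaled signal miR-34c-3p had 48.7, 50.2 and 49.3 in LPS exosomes, while all 3 control values, the highest at 4.82, lay below the floor of 9.89 that was set before the log was taken. The fitted log2 difference of 2.32 (limma adjusted p = 1.46e-08) is measured from that floor and gives no size. With detection set at well above background it was 0.049 (limma adjusted p = 0.027), and with the normexp correction -0.60. Its bound came to 0.709, below 1, because the lowest scaled signal well above background was 69.8 ± 6.28 on the control arrays and 14.9 ± 1.30 on the LPS arrays (SD, n = 3 each). No fold or direction is therefore given for it on the scaled signal. The bound passed 1 where the arrays were scaled by the 75th percentile over all miRNAs (1.62), by the spike-ins (3.78) or not at all (3.31).

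miR-34b-3p, which shares the seed of miR-34c-3p, had an unscaled signal of 8.54, 16.2 and 13.6 on the LPS arrays, against 2.14, 4.07 and 3.41 on the control arrays. The LPS values lay -0.060 to 0.62 SDs from the mean of the negative controls. It was below detection in both groups, and no difference is read.

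The differences of the 5p arms were then set against each other within each array, where the scaling of the array cancels. The log2 difference of miR-34c-5p exceeded that of miR-34a-5p by 0.49 and that of miR-34b-5p by 0.61, and in both pairs the 3 LPS arrays were apart from the 3 control arrays (two-sided exact permutation p = 0.1, the smallest possible, and 0.15 adjusted over the 3 pairs). For miR-34a-5p against miR-34b-5p the gap was 0.12 and the groups overlapped (exact permutation p = 0.3). None of the 3 pairs can pass 0.05 with 3 arrays a group, so no order among the arms is established by the tests.

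Scaling by a single factor per array, filters, the floor and the replicate block cannot move these gaps. That leaves 14 alternatives that can, quantile normalization among them. As values over those 14, the difference of miR-34c-5p exceeded that of miR-34b-5p by 0.35 to 1.54. It exceeded that of miR-34a-5p in 12 of the 14, the exceptions being the normexp correction and the gene total signal. The difference of miR-34b-5p was above that of miR-34a-5p in 1 of the 14, with the negative controls subtracted. Since miR-34b-5p and miR-34c-5p were near the background on the control arrays, their differences from miR-34a-5p also hold the part of the background in those signals, which was not tested beyond these settings.

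**Figure D3:**
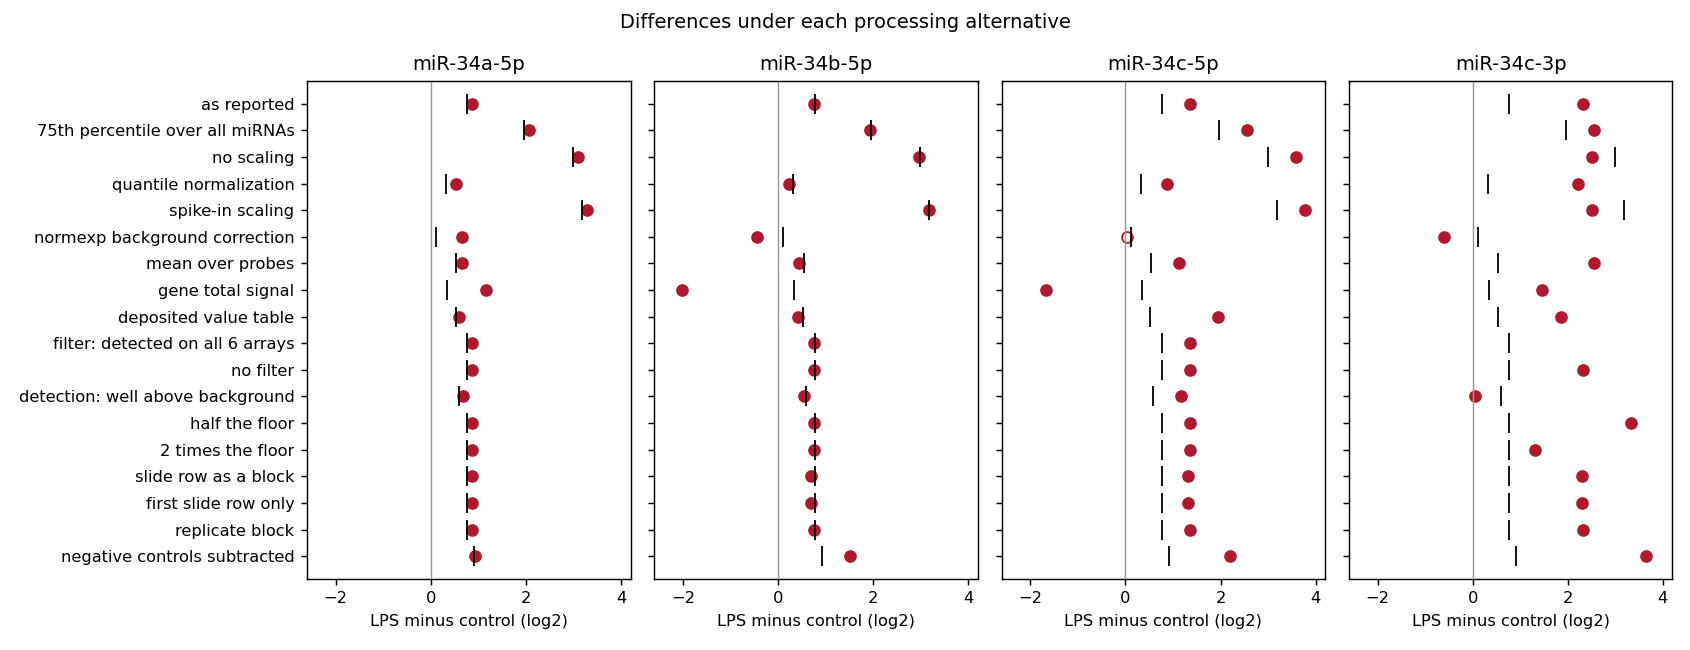
LPS minus control log2 difference of the 4 tested members under the reported setting and each processing alternative (red, filled where the limma adjusted p is below 0.05), with the median of the miRNAs detected on all 6 arrays in the same setting (black tick). miR-34a-5p stays above the tick throughout, and the points of the other members below 0 are those with the normexp correction (miR-34b-5p and miR-34c-3p) and the gene total signal (miR-34b-5p and miR-34c-5p).

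The position of the arrays could be checked in part. A number in the array barcode of the file headers was read as the row of a slide, which the labels do not state. By that reading the first row held the 3 control arrays and LPS array 1, and the second row held LPS arrays alone. Whether all arrays shared a single slide was not checked. Within the first row the log2 difference was 0.86 for miR-34a-5p, 0.70 for miR-34b-5p and 1.31 for miR-34c-5p, beside 0.87, 0.75 and 1.35 over all arrays. For miR-34c-3p it was 2.30 beside 2.32, but both are measured from the floor, where all its control values were set. With a single LPS array in that row, the spread among LPS arrays is not seen there and only the sizes are given.

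The deposited value table gave higher means in LPS exosomes for the 4 tested members. On its log2 scale miR-34a-5p had 9.72, 9.60 and 9.64 in LPS exosomes, against 9.02, 9.07 and 9.07 in control exosomes, a difference of 0.60. miR-34c-5p had 6.53, 6.71 and 6.76 in LPS exosomes, against 4.51, 4.89 and 4.75 in control exosomes, a difference of 1.95. In both arms the groups were apart by more than the spread within them. The difference was 0.41 for miR-34b-5p and 1.85 for miR-34c-3p. The sources used here do not give the normalization of that table, and its median difference over the miRNAs detected on all 6 arrays was 0.53.

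**Figure D4:**
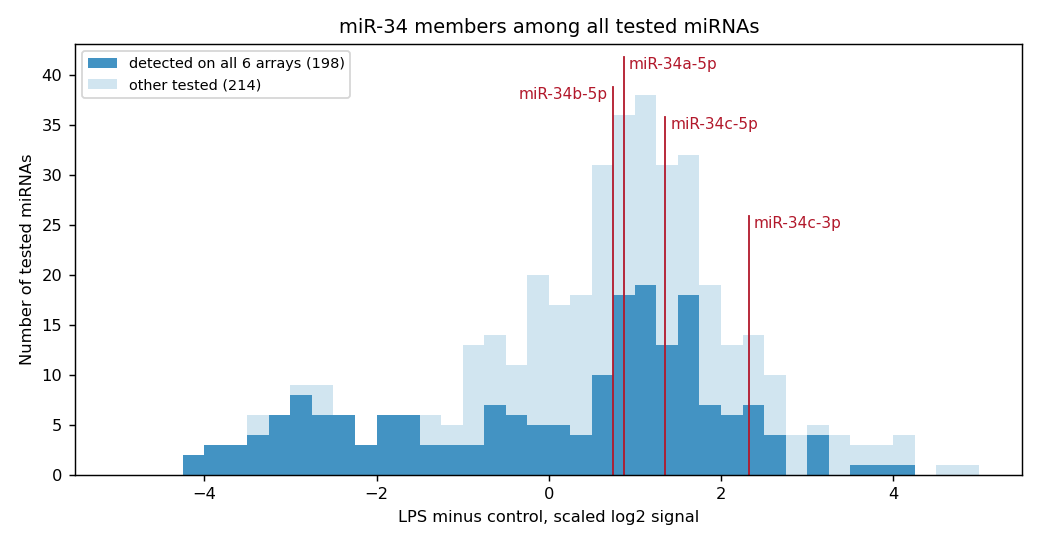
Number of tested miRNAs by LPS minus control difference in scaled log2 signal, in bins of equal width, for the 198 detected on all 6 arrays and the other 214 tested, with the 4 tested members marked. miR-34a-5p and miR-34b-5p lie at the crowded middle of the distribution, miR-34c-5p to the right of it, and the position of miR-34c-3p is set by the floor.

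The tested miRNAs whose scaled log2 values, centred over the 6 arrays, lay nearest to each 5p arm were listed among the other 411. For miR-34a-5p they were miR-7005-5p, miR-22-3p and miR-6906-5p, at root mean square distances of 0.020 to 0.026, and miR-34b-5p came at rank 38. For miR-34b-5p they were miR-130b-3p, miR-6948-3p and miR-19a-3p, at 0.066 to 0.071. For miR-34c-5p they were miR-21a-5p, miR-20b-5p and miR-107-3p, at 0.042 to 0.043, and miR-34a-5p came at rank 115. The likeness rests on 6 arrays whose main contrast is LPS against control, so it says little more than that the differences are of like size.

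Among the seed relatives, miR-449a-5p, miR-449b and miR-449c-5p were detected on no array. miR-449a-5p had an unscaled signal of 12.9, 14.1 and 12.1 on the LPS arrays, against 6.20, 6.01 and 9.66 on the control arrays. miR-449c-5p was at or below 0 on the LPS arrays and at 4.98, 0.024 and 3.86 on the control arrays. The miR-449 miRNAs are known from multiciliated epithelium, and the other epithelial markers were mostly missing too. Of the 8 epithelial miRNAs only miR-200c-3p was detected, on LPS arrays only. The summed scaled signal of the list was 16.1 to 17.6 there and 0 on the control arrays. The gene total of miR-200c-3p was far larger, at 2456, 2995 and 2936 on the LPS arrays, where its probe totals summed to 13.4, 15.3 and 13.9. The reason was not tested.

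Other miRNAs linked to p53 were described by a list of 18, of which 17 were on the array and 10 were tested. The 7 detected on all 6 arrays were all called higher in LPS exosomes and 0 lower, beside 58.1% and 38.4% of the 198 such miRNAs. Their median log2 difference was 1.33, beside 0.77. The 5 myeloid markers detected on all 6 arrays were also all called higher, with a median of 1.34. The shift is thus not particular to the p53-linked list. The 7 include miR-29a-3p, miR-29b-3p and miR-29c-3p, which share a seed. The other 3 tested, miR-182-5p, miR-192-5p and miR-200c-3p, were detected on the LPS arrays only. The bound was 1.86 for miR-182-5p and 1.02 for miR-192-5p, in this scaling only. Of the 196 tested miRNAs that no control array showed well above background, 30.6% had a bound above 1. For miR-192-5p the bound is so close to 1 that no direction is read. The bound was below 1 for miR-200c-3p, for which no direction is read either. The other 7 on the array, miR-194-5p, miR-215-5p, miR-143-3p, miR-145a-5p, miR-16-1-3p, miR-141-3p and miR-203-3p, were detected on none.

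By fitted log2 difference the first 4 on the list were miR-182-5p, whose value is measured from the floor, and the miR-29 arms, so the place of miR-182-5p is no order of size. miR-182-5p had 125, 131 and 133 on the scaled signal in LPS exosomes, against 1.25, 0.97 and 3.71, below the floor, in control exosomes. By its bound miR-182-5p was at least 1.86-fold higher, in this scaling only. miR-29a-3p, which is known to target collagen mRNAs, had 5186, 5212 and 5283 in LPS exosomes, against 1733, 1589 and 1645 in control exosomes, a log2 difference of 1.66 (SE 0.045, limma adjusted p = 1.08e-07). The groups of miR-29a-3p did not overlap, as in the 66.3% of the tested miRNAs whose LPS arrays lay above the control arrays. For miR-182-5p no such reading is made, because it was tested only through its detection on the LPS arrays. The differences of miR-29b-3p and miR-29c-3p, which share the seed of miR-29a-3p, were 1.55 and 1.48 and passed the test as well, but with the gene total signal that of miR-29b-3p was -1.42.

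Of the 4 listed miRNAs reported to repress p53 itself, miR-125b-5p, miR-25-3p and miR-30d-5p were tested and all 3 were higher in LPS exosomes, with log2 differences of 2.06, 1.19 and 1.70, and miR-504-5p was detected on no array. All 3 were detected on all 6 arrays, where 58.1% of the miRNAs were called higher.

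The cell type was checked with markers on the same arrays. All 6 myeloid miRNAs were detected in LPS exosomes, and 5 of them on all 6 arrays, among them miR-223-3p and the LPS-responsive miR-155-5p. The summed scaled signal of the list was 28298 to 31294 on the LPS arrays and 11156 to 11526 on the control arrays. Most of it was miR-21a-5p (17168 to 18841 and 6884 to 7251) and miR-146a-5p (9279 to 10594 and 3929 to 4026). miR-223-3p had only 193 to 196 and 91.2 to 93.2, so the size of the sum says little about cell type. The muscle markers were detected on no array. Of the neural markers miR-124-3p and miR-9-5p were detected on none, and miR-128-3p, which other tissues also make, had 306 to 308 on the LPS arrays and 68.6 to 79.6 on the control arrays. Of the serum and erythroid markers miR-451a, miR-486a-5p, miR-144-3p and miR-122-5p were detected on no array, and the widely made miR-16-5p alone gave a sum of 3871 to 4556 on the LPS arrays and 1696 to 1759 on the control arrays.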

How the data were processed

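Exosomal RNA of 3 LPS and 3 control samples was measured on one-colour arrays. The authors deposited scanner output as linear intensity, background-subtracted by Agilent Feature Extraction 10.7.1.1 per the file headers, whereas the submitters' processing notes name version 9.1. A further table of log2 values was deposited by the authors, and its centring is unknown. The label protocol names a kit for labelled cRNA.

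Spots of a probe were averaged (processed signal, no control or outlier spots), and a miRNA was read from its brightest probe (1881 miRNAs, 4415 probes). Scaling divided each array by the 75th percentile of the 198 miRNAs that every array detected, and values were floored at 9.89 and taken to log2. The 412 miRNAs detected on all 3 arrays of a group were tested with limma 3.58.1 in R 4.3.3 (lmFit, eBayes, Benjamini-Hochberg adjustment, threshold 0.05). A probe counted as well above background where a share above 0.5 of its spots carried that flag. On simulated data over 412 miRNAs the fit recovered 88% of log2 changes of 0.5 and 100% of changes of 1 or more, and called 6 of 212 unchanged ones. The number of arrays limits the precision. No replicate pair held identical values, and 0 sample columns were left unused.

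Named miRNAs were the members, miR-449a-5p and miR-449c-5p, up to 4 of the p53-linked list with the largest differences, and the 3 nearest profiles of each 5p arm; others are given where a count rests on them. The lists were p53-linked, p53 repressors, seed relatives, myeloid, serum and erythroid, epithelial, neural and muscle. The members and lists were chosen with earlier results of these data known. Sequences came from RefSeq tables and the deposited probe columns.

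Alternatives were other scalings (75th percentile over all miRNAs, none, quantile, spike-ins), normexp with an offset of 50, the mean over probes, the gene total, the value table, other filters and floors, the slide row or replicate number as a block, the first slide row alone and leaving out each replicate. Subtraction of the negative controls was added after seeing the data.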

Additional observations from a re-analysis of the deposited data

How the results depend on the processing

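miR-34a-5p kept its direction and its call in all 23 alternatives (log2 difference 0.52 to 3.28), of which the filters, the floors and the replicate block leave its value as it was. Of all the alternatives only the normexp correction and the gene total signal changed the call of a member: normexp gave -0.44 for miR-34b-5p, 0.029 for miR-34c-5p and -0.60 for miR-34c-3p, and the gene total gave -2.03 for miR-34b-5p and -1.68 for miR-34c-5p. The cause was not tested. Over miRNAs detected on every array miR-34c-3p has no value. Leaving out each replicate gave 0.85 to 0.88 for miR-34a-5p, 0.68 to 0.80 for miR-34b-5p and 1.32 to 1.39 for miR-34c-5p. It gave 2.31 to 2.33 for miR-34c-3p, which leaving out a control could not move because the control values were set to the floor. Scaling moved the median of the 198 miRNAs detected on all 6 arrays from 0.77 to 1.96 (75th percentile over all miRNAs), 2.99 (no scaling), 3.18 (spike-in scaling) and 0.32 (quantile normalization). The count of miRNAs higher in LPS exosomes was 270, and 113 with normexp, 115 over the miRNAs that every array detected, and 170 with detection set at well above background. The count lower was 110, and 59 with the percentile over all miRNAs, 39 with no scaling, 38 with spike-in scaling, 284 with normexp and 269 with no filter. The higher and lower split was 364 and 39 with no scaling, 370 and 38 with spike-in scaling, 337 and 59 with the percentile over all miRNAs, and 113 and 284 with normexp. Leaving out a replicate gave 263 to 273 higher and 108 to 112 lower. Signal over background on the control arrays limits what can be said of miR-34b-5p, miR-34c-5p and miR-34c-3p.

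Samples of a number share only that number: same-numbered LPS and control arrays deviated from their group means with correlations of -0.40, -0.22 and -0.28, and 0 of the samples went best with its own number. With the replicate block 270 miRNAs were higher and 110 lower. The differences stayed at 0.87, 0.75, 1.35 and 2.32 for miR-34a-5p, miR-34b-5p, miR-34c-5p and miR-34c-3p, all still past the threshold. That of miR-34c-3p is again measured from the floor and gives no direction.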
